A study of Mus musculus with 11 samples.

Results

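Clones 16, 17 and 19 are 3 of 11 clonal mouse embryonic stem cell lines whose transcriptomes were sequenced, and they were set against the other 8, clones 18 and 20 to 26. The 3 clones were chosen by measured values of the same count table: they share a run of genes with higher levels near the end of chromosome 14 that begins at about Polr3d, a run with lower levels after it that ends at Tmtc4, and Otx2 below 20 CPM. Because the clones were selected on this contrast, its values are given here as a description with no test. The 2 runs are called the higher and the lower stretch. Of 12481 genes whose mean reached 1 CPM (counts per 1000000 counts of the library, on scaled library sizes), 58 lay in the higher stretch, 34 in the lower stretch and 12389 outside both. The table holds 95 genes from the start to the end of the higher stretch and 53 of the lower, and the 37 and 19 that averaged less than 1 CPM are not described.

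All 11 clones descend from EBRTcH3, a cell line that makes the tetracycline-controlled transactivator from the ROSA26 promoter. They were transfected with a barcoded piggyBac library of reporters driven by the mouse PGK promoter (mPGK) and with a piggyBac transposase. Clones were single colonies from cells sorted for high eGFP, so each carries multiple integrated reporters and each line comes from 1 colony. All were grown in BRL-conditioned medium with leukemia inhibitory factor, the MEK inhibitor PD0325901 and the GSK-3 inhibitor CHIR99021. The labels place the 11 clones in 1 group with no treatment contrast and 1 library per clone, so the spread between clones also contains the spread between libraries. The files hold RNA counts. DNA copy number and reporter sites were not analysed here, and their part in these values was not tested.

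In naive mouse embryonic stem cells the core factors Pou5f1, Sox2 and Nanog and the naive-state factors Esrrb, Klf4 and Zfp42 are abundant, and MEK inhibition holds back the step to the formative state. Otx2 is a homeobox factor that accompanies that step, and the zinc finger factors Zic2 and Zic5 and the SOX factor Sox3 are expressed as it proceeds. Polr3d is a subunit of RNA polymerase III, which makes transfer RNAs and other short RNAs. Mouse stem cell lines in culture are known to acquire gains and losses of chromosome parts.

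Counts totalled 10846005 to 16809970 in clones 16, 17 and 19 and 12260732 to 16868500 in the other 8, and 15910 to 16634 genes in the 3 clones against 16030 to 16502 in the other 8 had at least 1 count. The 8 embryonic stem cell markers summed to 6655 to 8409 CPM in clones 16, 17 and 19 and to 7112 to 8306 CPM in the other 8. All 8 had a mean of at least 1 CPM. Short marker lists of other cells were low in both sets. In clones 16, 17 and 19 against the other 8, primitive endoderm summed to 3.02 to 7.005 against 4.92 to 9.21 CPM, trophoblast to 7.93 to 14.5 against 3.72 to 16.4, mesoderm to 1.43 to 4.17 against 1.45 to 2.57, fibroblast to 13.8 to 25.9 against 9.46 to 22.6, and neural to 50.8 to 95.8 against 48.4 to 121. In such bulk libraries fewer cells of a type and less RNA per cell cannot be told apart. Among the other 8, clone 21 stands apart on chromosome 14: its genes were lower along a part of the chromosome that overlaps the higher stretch. The medians of the higher stretch are therefore also given without it.

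In the higher stretch, which began at Polr3d, 43 of 58 genes had levels in clones 16, 17 and 19 that all lay above the levels in all of the other 8 clones, and 0 had levels that all lay below. Over all 12481 genes the share of such genes was 4.71% higher and 4.47% lower. These genes chose the clones, so the count describes the choice. The difference is taken as the mean log2(CPM + 1) of clones 16, 17 and 19 minus that of the other 8. Its median over the 58 genes was 0.92 (interquartile range 0.63 to 1.07), or 1.89-fold, and 56 of the 58 differences were above 0. Each clone showed it: the median was 0.92 in clone 16, 0.82 in clone 17 and 0.84 in clone 19, whereas clone 21 stood at -0.76 and the remaining 7 at 0.05 to 0.10, each against the rest of the 8. Without clone 21 the median was 0.84, or 1.79-fold. Differences of single genes and of groups are given against all 8, and they are wider where clone 21 was low. Without it the difference was 0.63 instead of 0.80 for Polr3d, 0.76 instead of 0.91 for Tpt1 and 1.27 instead of 1.43 for Sucla2. Where clone 21 was not low it changed little, as for Bora (0.58 instead of 0.59). Summed over the 58 genes, transcripts made up 7031, 6291 and 6192 CPM in clones 16, 17 and 19, against 2766 CPM in clone 21 and 3706 to 4093 CPM in the remaining 7.

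In the lower stretch, from Mycbp2 to Tmtc4, 17 of 34 genes had levels in clones 16, 17 and 19 that all lay below those of the other 8, and 2 genes, Rbm26 and Ndfip2, had levels that all lay above. The median difference was -0.72 (interquartile range -1.04 to -0.21), or 0.609-fold, with -0.99 in clone 16, -0.59 in clone 17 and -0.71 in clone 19. Clone 21 did not stand apart here, at 0.05. The 34 genes summed to 1607, 1704 and 1480 CPM in clones 16, 17 and 19, against 2305 to 2531 CPM in the other 8. The rest of chromosome 14 had a median difference of 0.00621 over 327 genes, and the other chromosomes -0.00476 over 11929 genes. Before the higher stretch, a short run of genes around Zfhx2 lay slightly above 0 in clones 16, 17 and 19. Zfhx2 itself differed by 0.60 when clone 21 was left out, with no overlap.

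**Figure D1:**
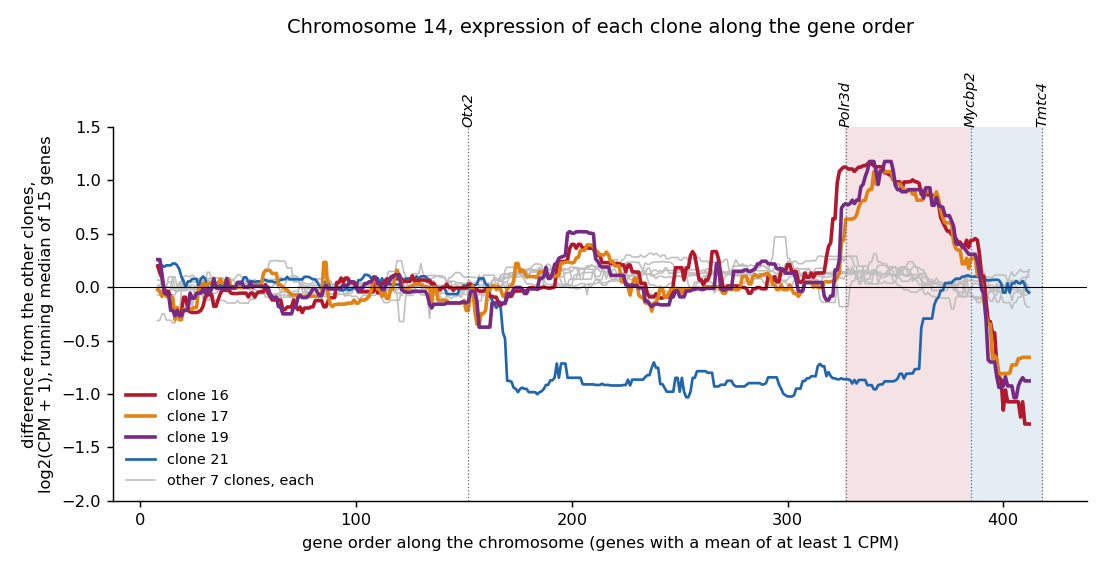
Running median over 15 genes of the difference in log2(CPM + 1) between each clone and the other clones, along the gene order of chromosome 14, for clones 16, 17 and 19, clone 21 and the remaining 7 clones in grey. The higher stretch is shaded red and the lower stretch blue. Clones 16, 17 and 19 lie above 0 in the higher stretch and below 0 at the end, and clone 21 lies below 0 over a long part of the chromosome, which also lifts the other lines there slightly, since it is part of their baseline.

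**Figure D2:**
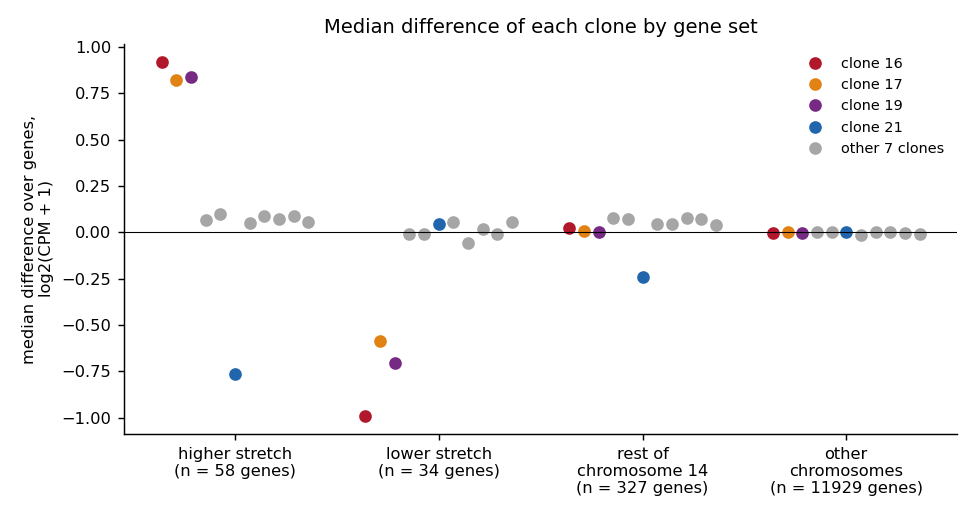
Median difference over genes in log2(CPM + 1) for each of the 11 clones in the higher stretch, the lower stretch, the rest of chromosome 14 and the other chromosomes. Clones 16, 17 and 19 stand at 0.82 to 0.92 in the higher stretch and at -0.99 to -0.59 in the lower stretch, and clone 21 stands at -0.76 in the higher stretch.

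Part of the members of the higher stretch were sorted into groups of known function after their values were seen, and the rest were left ungrouped. Over the whole stretch 43 of 58 genes (74.1%) were higher with no overlap, and these genes chose the clones. Whether any group departs from that share was not tested. RNA polymerase, Mediator and RNA processing factors formed 1 group, in which 6 of 7 members were higher with no overlap (median difference 1.02). Polr3d stood at 74.1, 58.4 and 64.7 CPM in clones 16, 17 and 19, compared with 16.2 to 48.3 CPM (median 40.2) in the other 8 (difference 0.80 ± 0.20, SE). The 3 clones lay above all others, the lowest of which was clone 21. Med4, a Mediator subunit, stood at 77.7, 65.9 and 75.7 CPM in clones 16, 17 and 19 and at 16.4 to 45.02 CPM (median 37.3) in the other 8 (1.04 ± 0.17). Gtf2f2, a subunit of the general factor TFIIF, was at 53.9, 54.3 and 74.2 CPM in the 3 clones and 15.3 to 34.4 CPM (median 26.9) in the rest (1.16 ± 0.19). Nufip1, which helps assemble small nucleolar ribonucleoproteins, was at 141, 160.4 and 182 CPM in clones 16, 17 and 19 and 37.2 to 88.7 CPM (median 75.4) in the others (1.17 ± 0.17). These genes differed by about the same amount, near 1 on the log2 scale. The exception was Dis3, a nuclease of the exosome, at 155, 143 and 163 CPM in the 3 clones, against 115 to 145 CPM (median 120.01) in the other 8 (0.32 ± 0.07): the lowest of the 3 clones lay within the range of the 8.

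All 5 genes of mitochondrial proteins were higher in clones 16, 17 and 19 with no overlap, with a median difference of 1.29 and a range of 0.96 to 1.44. Sucla2, a subunit of the succinyl-CoA ligase of the citric acid cycle, stood at 160.4, 191 and 178 CPM in clones 16, 17 and 19, compared with 29.2 to 113 CPM (median 66.8) in the other 8 (1.43 ± 0.20). Mtrf1, a mitochondrial translation release factor, was at 23.6, 22.9 and 23.2 CPM in the 3 clones and 5.21 to 11.6 CPM (median 9.50) in the rest (1.29 ± 0.12), and its values in the 3 clones were close to one another. Slc25a30, a mitochondrial carrier, was at 24.6, 70.6 and 33.6 CPM in clones 16, 17 and 19 and at 8.29 to 18.3 CPM (median 14.4) in the others (1.44 ± 0.46). Here clone 17 stood well above clones 16 and 19. Dnajc15 and Vwa8 differed by 1.02 ± 0.13 and 0.96 ± 0.14.

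Genes of mitosis and the centrosome were higher with no overlap in 5 of 5 cases, at a smaller median difference of 0.80. Bora, an activator of Aurora kinase signalling, stood at 73.97, 73.02 and 71.96 CPM in clones 16, 17 and 19, compared with 45.5 to 53.7 CPM (median 47.8) in the other 8 (0.59 ± 0.03). Mzt1, a component of gamma-tubulin complexes, was at 68.5, 77.8 and 81.5 CPM in the 3 clones, against 44.9 to 55.6 CPM (median 51.6) in the other 8 (0.57 ± 0.08). Sugt1, a cochaperone needed at kinetochores, was at 317, 337 and 342 CPM in clones 16, 17 and 19 and 145 to 191 CPM (median 178) in the others (0.93 ± 0.06). All 4 genes of the ubiquitin pathway (median 0.70) and all 4 of membrane traffic and the lysosome (median 0.95) were also higher with no overlap. Itm2b, a membrane protein of the secretory route, stood at 249, 199 and 212 CPM in clones 16, 17 and 19, compared with 46.4 to 116 CPM (median 101) in the other 8 (1.22 ± 0.18).

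Among the most abundant transcripts of the higher stretch were Tpt1, Tsc22d1, Klf5, Sugt1 and Xpo7, of which Klf5 overlapped between the sets and the others did not. Tpt1, the translationally controlled tumour protein, stood at 872, 758 and 713 CPM in clones 16, 17 and 19, compared with 202 to 505 CPM (median 449.8) in the other 8 (0.91 ± 0.17). Tsc22d1, a leucine zipper regulator of transcription, was at 868, 578 and 619 CPM in the 3 clones and 206 to 387 CPM (median 350.05) in the rest (1.04 ± 0.21). Xpo7, a nuclear export receptor, was at 307, 281 and 267 CPM in clones 16, 17 and 19 and 84.5 to 230.2 CPM (median 197) in the others (0.67 ± 0.17). In Tpt1, Tsc22d1 and Xpo7 clone 21 held the lowest value.

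The largest differences with the direction of the stretch, among genes averaging 5 CPM or more, were those of Lpar6, Rcbtb2, Esd, Slc25a30 and Sucla2. Lpar6, a receptor for lysophosphatidic acid, stood at 27.9, 14.9 and 21.7 CPM in clones 16, 17 and 19, compared with 3.01 to 8.17 CPM (median 6.21) in the other 8 (1.70 ± 0.29). Rcbtb2, a protein with RCC1 and BTB domains, was at 53.3, 31.6 and 55.9 CPM in the 3 clones, against 5.82 to 18.9 CPM (median 14.2) in the other 8 (1.69 ± 0.31). Esd, an esterase of formaldehyde detoxification, was at 58.7, 76.99 and 82.6 CPM in clones 16, 17 and 19 and 14.6 to 30.9 CPM (median 27.7) in the others (1.46 ± 0.19). The values of these genes in the 3 clones did not reach down to any of the other 8.

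The receptors and signalling group was the least uniform, with 2 of 7 members higher with no overlap and 5 overlapping. Of transcription factors and corepressors 3 of 6 were higher with no overlap. Rb1, the retinoblastoma protein that restrains E2F factors, stood at 29.3, 16.3 and 15.98 CPM in clones 16, 17 and 19, compared with 5.14 to 17.3 CPM (median 8.36) in the other 8 (1.06 ± 0.32). Its values in clones 17 and 19 lay just below the highest of the 8. Klf5, a factor of the pluripotency network, was at 536, 466 and 326 CPM in the 3 clones and 328 to 505 CPM (median 407) in the rest (0.07 ± 0.23): clone 16 was above, clone 17 within and clone 19 below the range of the 8. Lcp1, an actin-bundling protein, was at 3.29, 16.8 and 11.8 CPM in clones 16, 17 and 19 and 1.16 to 5.76 CPM (median 3.33) in the others (1.32 ± 0.65), with clone 16 inside the range of the 8. Of the 15 overlapping members, 6 had a mean below 5 CPM. Rps3a2, at 32.8, 24.8 and 25.2 CPM in the 3 clones, against 22.6 to 28.7 CPM (median 25.9) in the other 8, resembles other ribosomal protein genes, so its reads may not be its own.

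In the 2 genes with a difference below 0, clone 19 was far lower than clones 16 and 17. Enox1, a cell surface oxidase, stood at 73.03, 66.03 and 10.6 CPM in clones 16, 17 and 19, compared with 52.2 to 104 CPM (median 77.4) in the other 8 (-1.04 ± 0.88). Klf12, a repressor of the KLF family, was at 62.96, 57.6 and 8.92 CPM in the 3 clones and 31.5 to 79.3 CPM (median 55.2) in the rest (-0.67 ± 0.89). In both genes clone 19 lay far below all 10 other clones, and clones 16 and 17 lay within the range of the 8. Of the 58 genes, 51 were above the mean of the 8 in all 3 clones. The difference between the highest and the lowest of the 3 clones had a median of 0.35 on the log2 scale and exceeded 1 in 6 genes.

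The size of the difference was uneven along the higher stretch. The cut after Tsc22d1 was placed where the mean of these same values changed most, so the gap follows partly from the cut. The shorter runs were picked by name, and a change of size at any given gene was not tested. Against the 7 clones other than 21, the first 29 genes, Polr3d to Tsc22d1, had a median of 0.89 (1.85-fold), with 0.98 in clone 16, 0.83 in clone 17 and 0.84 in clone 19. The next 29, from Lacc1 on, had 0.65 (1.57-fold). The 5 genes from Wbp4 to Tdrd3 in the middle of that part stood at 0.88. The 18 genes from Mzt1 to Ndfip2, which reach into the lower stretch, stood at 0.41 (1.33-fold), and 10 of them were higher with no overlap. Lmo7, within these 18 genes, was at 115, 104 and 99.5 CPM in clones 16, 17 and 19, compared with 24.2 to 52.1 CPM (median 49.8) in the other 8 (1.26 ± 0.14), a larger difference than that of its neighbour Uchl3 (0.63 ± 0.06).

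The boundaries were located per clone as the points at which the mean difference from the 7 clones other than 21 changed most. In clones 17 and 19 the higher stretch began between Piwil2 and Polr3d, and in clone 16 between Bin3 and Ccar2, a few genes earlier. Ccar2, a regulator of cell cycle and apoptosis, was higher in all 3, at 156, 138 and 124 CPM in clones 16, 17 and 19, compared with 36.6 to 79.3 CPM (median 73.9) in the other 8 (1.01 ± 0.16). The genes just before Polr3d overlapped between the sets. Slc39a14, a metal ion transporter, was at 135, 116 and 16.8 CPM in clones 16, 17 and 19 and 48.03 to 114 CPM (median 99.9) in the others, with clone 19 far below. Piwil2, a PIWI protein of germ cells, was at 63.1, 24.8 and 14.1 CPM in the 3 clones, against 11.1 to 45.2 CPM (median 30.1) in the other 8, with clone 16 above all others. Just inside the start lay Polr3d and Phyhip. Phyhip was at 9.22, 7.22 and 6.83 CPM in clones 16, 17 and 19 and 1.71 to 4.88 CPM (median 3.95) in the other 8.

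The switch from higher to lower was less sharp. It fell at Mycbp2 in clone 17, between Gm10076 and Spry2 in clone 19 and between Sox21 and Abcc4 in clone 16, and for the mean of the 3 without clone 21 between Spry2 and Trim52. These points rest on means, so a single gene can move them. In clone 16, Sox21 stood at 2.43 against the mean of the 8. Before it, Trim52, Gpc6, Tgds and Gpr180 were already at -1.18, -1.15, -0.43 and -0.87 in clone 16, and Tpm3-rs7 at 0.50. The switch points of single clones are therefore uncertain. Mycbp2, a large ubiquitin ligase, overlapped at 169, 113 and 149.6 CPM in clones 16, 17 and 19, compared with 122 to 154 CPM (median 136) in the other 8, and so did its neighbour Slain1 at 2.45, 4.13 and 5.79 CPM in the 3 clones, against 4.35 to 8.20 CPM (median 6.21) in the other 8. Rbm26, an RNA-binding protein, was at 314, 339 and 287 CPM in the 3 clones and 215 to 262 CPM (median 229.6) in the rest (0.43 ± 0.08), and Ndfip2, an adaptor of Nedd4 ligases, at 42.7, 36.7 and 38.5 CPM in the 3 clones, against 25.2 to 34.3 CPM (median 30.8) in the other 8 (0.36 ± 0.08). The 8 genes from Mycbp2 to Spry2 had a median of 0.01. With the lower stretch counted from Trim52, 17 of 26 genes were lower with no overlap and 0 higher, and the median was -0.84 (0.559-fold), with -1.06 in clone 16, -0.70 in clone 17 and -0.86 in clone 19.

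In this transition zone single clones also stood out. Spry2, which restrains signals from receptor tyrosine kinases, was at 208, 225 and 75.3 CPM in clones 16, 17 and 19, compared with 115 to 185 CPM (median 145) in the other 8 (0.07 ± 0.51). Clones 16 and 17 lay above all of the 8 and clone 19 below all of them. Sox21, a repressor of the SOX family, was at 132, 18.4 and 14.2 CPM in the 3 clones and 18.2 to 30.2 CPM (median 24.4) in the rest (0.46 ± 0.99), with clone 16 several times above every other clone. Rnf219 was at 8.28, 4.44 and 14.2 CPM in clones 16, 17 and 19 and 6.60 to 12.6 CPM (median 9.06) in the others, with clone 19 above and clone 17 below the range of the 8.

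Beyond the switch the lower stretch held several abundant genes. Part of its members were likewise grouped by function after their values were seen. Over the whole lower stretch 17 of 34 genes (50%) were lower with no overlap, and whether any group departs from that share was not tested. Ipo5, an importin of nuclear transport, stood at 248, 337 and 328 CPM in clones 16, 17 and 19, compared with 597 to 799 CPM (median 668) in the other 8 (-1.16 ± 0.15). Abcc4, an efflux transporter, was at 63.2, 118 and 76.7 CPM in the 3 clones, against 184 to 247 CPM (median 207) in the other 8 (-1.31 ± 0.27). Both genes were lower in all 3 clones than in any of the 8, and clone 16 held the lowest value of each. The third member of the transporter group, the peptide transporter Slc15a1, overlapped.

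Of 5 endoplasmic reticulum and membrane proteins, 4 were lower with no overlap (median -1.11). Dnajc3, a cochaperone of protein folding in the endoplasmic reticulum, stood at 25.7, 20.8 and 22.3 CPM in clones 16, 17 and 19, compared with 53.9 to 73.5 CPM (median 60.9) in the other 8 (-1.38 ± 0.10). Tm9sf2, a membrane protein of endosomes and Golgi, was at 101, 92.3 and 78.7 CPM in the 3 clones and 194 to 216 CPM (median 206) in the rest (-1.18 ± 0.11), and Ubac2 differed by -1.11 ± 0.16. Tmtc4, the last gene of the stretch and part of the rule, was at 6.78, 13.1 and 10.5 CPM in clones 16, 17 and 19 and 9.96 to 19.5 CPM (median 15.6) in the other 8 (-0.59 ± 0.27), so that its values overlapped. Nalcn, a sodium leak channel and the next described gene after it, was at 0.471, 0.397 and 0.579 CPM in the 3 clones, against 1.60 to 7.48 CPM (median 4.30) in the other 8 (-1.80 ± 0.19), lower in all 3 clones.

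Of the 5 genes of small GTPase, kinase and feedback signalling, 3 were lower with no overlap. Rap2a, a small GTPase, stood at 9.69, 12.9 and 12.2 CPM in clones 16, 17 and 19, compared with 24.9 to 39.03 CPM (median 29.8) in the other 8 (-1.31 ± 0.13). Stk24, a kinase of the STE20 family, was at 39.4, 58.7 and 51.1 CPM in the 3 clones and 83.5 to 115 CPM (median 97.5) in the rest (-0.98 ± 0.17). Dock9, an exchange factor for Cdc42, was at 19.9, 29.7 and 20.1 CPM in clones 16, 17 and 19 and 32.2 to 47.8 CPM (median 44.98) in the others (-0.88 ± 0.19). Farp1, another exchange factor, overlapped at 14.02, 37.8 and 49.96 CPM in the 3 clones, against 28.5 to 66.5 CPM (median 47.9) in the other 8, low in clone 16 and within the range of the 8 in clones 17 and 19.

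All 4 metabolic enzymes of the lower stretch were lower with no overlap, with differences of -1.04 to -0.71. Pcca, the alpha subunit of propionyl-CoA carboxylase, stood at 12.5, 16.9 and 16.9 CPM in clones 16, 17 and 19, compared with 20.4 to 33.2 CPM (median 28.6) in the other 8 (-0.79 ± 0.16). Clybl, a mitochondrial lyase, was at 24.5, 34.4 and 29.2 CPM in the 3 clones and 40.7 to 52.4 CPM (median 49.3) in the rest (-0.72 ± 0.14). Dzip1, a protein of the ciliary base, was at 21.4, 8.89 and 14.99 CPM in clones 16, 17 and 19 and 26.8 to 40.7 CPM (median 37.7) in the others (-1.28 ± 0.35). The splicing regulator Mbnl2 overlapped at 43.01, 35.7 and 43.6 CPM in the 3 clones, against 31.97 to 77.6 CPM (median 65.2) in the other 8, since 2 of the 8 lay below all 3 clones.

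The lower stretch holds the pair Zic2 and Zic5. Zic5 stood at 11.2, 20.8 and 16.6 CPM in clones 16, 17 and 19, compared with 23.1 to 39.3 CPM (median 29.98) in the other 8 (-0.92 ± 0.26), with no overlap. Zic2 was at 15.3, 29.8 and 41.9 CPM in the 3 clones and 35.2 to 93.4 CPM (median 56.8) in the rest (-1.11 ± 0.45): clone 19 lay within the range of the 8 and clones 16 and 17 below it.

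Otx2, also on chromosome 14 but outside both stretches, was part of the rule. It stood at 15.2, 13.7 and 12.2 CPM in clones 16, 17 and 19, compared with 28.2 to 54.7 CPM (median 46.5) in the other 8 (-1.61 ± 0.14), or 13.7 ± 1.516 CPM (SD, n = 3) and 44.6 ± 8.69 CPM (SD, n = 8). The 3 clones lay close together and below all of the 8, clone 21 included. Of its nearest described neighbours, Ktn1, Peli2, Exoc5, Ap5m1 and Naa30 overlapped between the sets. Tmem260, also a neighbour, was lower with no overlap, at 9.22, 7.62 and 7.41 CPM in clones 16, 17 and 19, compared with 10.2 to 13.4 CPM (median 11.7) in the other 8 (-0.48 ± 0.10).

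**Figure D3:**
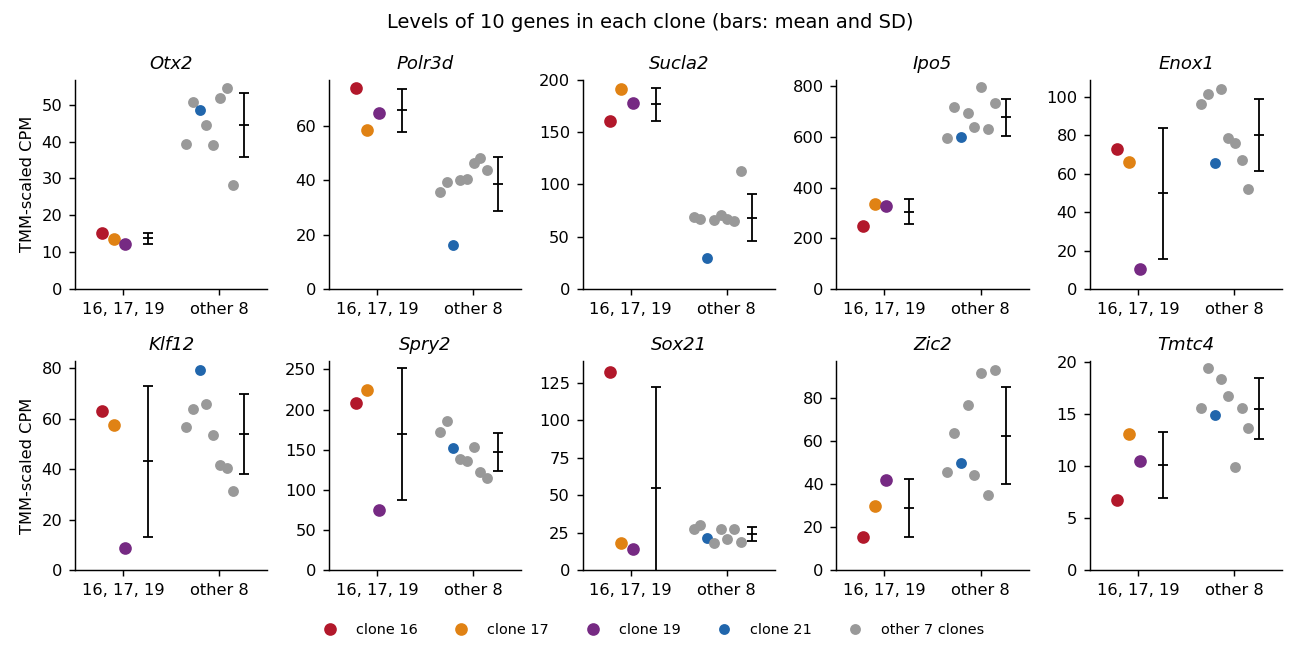
TMM-scaled CPM of 10 genes of chromosome 14 in clones 16, 17 and 19, at left, and in the other 8 clones, at right, with 1 point per clone and bars for mean and SD (cut at 0 for Sox21). Otx2, Polr3d, Sucla2 and Ipo5 show no overlap between the sets, and Enox1, Klf12, Spry2 and Sox21 each have 1 of the 3 clones far from the other 2.

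Genes of the formative and primed epiblast were described as a list with 21 members at a mean of at least 1 CPM. Of these 3 were lower with no overlap (Otx2, Zic5 and Sox3) and 0 higher, where 4.47% of all genes were lower and 4.71% higher. The median difference was -0.50, against -0.0039 over all 12481 genes, and 17 of 21 were below 0. Otx2 and Zic2 belong to the rule and 2 members lie in the lower stretch, so the list is no independent evidence of its direction. Sox3 was at 0.188, 0.0794 and 0.347 CPM in clones 16, 17 and 19, close to the level of 3 counts (0.174 to 0.282 CPM), against 0.764 to 4.84 CPM (median 2.43) in the other 8. Sox11, a further SOX factor, overlapped at 1.88, 0.556 and 0.232 CPM in the 3 clones, against 1.33 to 8.08 CPM (median 3.60) in the other 8 (-1.43 ± 0.41), and Sox4 at 1.69, 1.43 and 1.27 CPM in the 3 clones and 0.834 to 10.8 CPM (median 4.89) in the rest (-1.13 ± 0.32). Over the 10 described SOX genes, 5 differences were above 0 and 5 below, with a median of -0.05.

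In the naive and core pluripotency list 1 of 24 members was higher with no overlap, 0 were lower, and the median was 0.02. Over all genes the shares were 4.71% higher and 4.47% lower. Pou5f1 stood at 943, 776 and 936 CPM in clones 16, 17 and 19, compared with 775 to 974 CPM (median 845) in the other 8, and Nanog at 832, 621 and 939 CPM in the 3 clones, against 672 to 831 CPM (median 727) in the other 8. Dppa5a, an RNA-binding protein of naive cells and the gene with no overlap, was at 527, 566 and 620.4 CPM in clones 16, 17 and 19 and 330.05 to 477 CPM (median 412) in the others (0.47 ± 0.09). Klf4 was at 410.02, 239.7 and 359 CPM in the 3 clones and 399 to 599 CPM (median 460.1) in the rest (-0.51 ± 0.24) and Zfp42 at 956, 749.9 and 626 CPM in the 3 clones, against 799 to 1435 CPM (median 989) in the other 8 (-0.43 ± 0.20), both overlapping. Dppa3, a maternal factor that marks part of naive cells, overlapped at 1.51, 3.49 and 23.3 CPM in clones 16, 17 and 19, compared with 0.137 to 5.20 CPM (median 0.277) in the other 8, with clone 19 above all others.

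Feedback genes of ERK signalling had 0 of 16 members without overlap and a median of -0.04, where 4.71% of all genes were higher and 4.47% lower. Clone 19 stood apart in several of them. Spry4 was at 123, 61.99 and 4.69 CPM in clones 16, 17 and 19, compared with 21.5 to 134 CPM (median 114) in the other 8. Etv4, an ETS factor, was at 80.6, 103 and 6.60 CPM in the 3 clones and 16.1 to 176 CPM (median 112) in the rest, and the phosphatase Dusp4 at 22.6, 13.1 and 2.03 CPM in the 3 clones, against 16.2 to 44.6 CPM (median 24.2) in the other 8. In all 3 genes, as in Spry2, clone 19 lay below each of the other 10 clones. Clone 16 lay within the range of the 8 in these 3 genes, and so did clone 17 except in Dusp4, where it lay below.

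The partners of the proteins encoded in the stretches were also counted, where 4.71% of all genes were higher and 4.47% lower with no overlap. Counts in lists this short do not set them apart from those shares, and Polr3d belongs to the rule. Of 17 genes of the RNA polymerase III list, 2 were higher with no overlap, Polr3d itself and the polymerase repressor Maf1, and 1 was lower, Polr3b, with a median of -0.01. Maf1 lies on chromosome 15, where 94 of 487 genes (19.3%) were higher with no overlap. Its level was 115, 98.02 and 108 CPM in clones 16, 17 and 19, compared with 61.9 to 90.2 CPM (median 77.5) in the other 8 (0.45 ± 0.09). Polr3b was at 123, 135 and 122 CPM in the 3 clones and 138 to 172 CPM (median 151) in the rest (-0.26 ± 0.06). Of 20 genes of the Rb and E2F list 1 was higher with no overlap, the cyclin Ccnd3 (0.52 ± 0.08), and of 20 E2F target genes 0, with medians of -0.14 and -0.07. Of 10 SOX genes, Sox15 was higher with no overlap, at 10.9, 12.9 and 11.8 CPM in clones 16, 17 and 19, compared with 4.93 to 9.55 CPM (median 6.82) in the other 8, and Sox3 lower.

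Outside both stretches, 543 of 12389 genes were higher in all 3 clones than in all of the other 8 (4.38%) and 541 were lower (4.37%). With a difference of at least 1 on the log2 scale the counts were 73 (0.589%) and 106 (0.856%). These counts were uneven over chromosomes. A scan in windows of 25 genes that averaged 5 CPM or more found 309 of 9790 windows in which all 3 clones lay beyond 0.3 in the same direction. Of these, 64 were on chromosome 14, 245 on chromosome 15 and none on another chromosome. The scan included the genes of the stretches. The 64 windows formed the runs Kctd9 to Tgds (52 windows) and Commd6 to Tmtc4 (12 windows), which cover the stretches. They therefore follow from the choice of the clones.

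Chromosome 15 carried a shared higher part that the rule did not name, though it comes from the same contrast. Its borders were fitted to these same values, Mroh4 to the mean of clones 16, 17 and 19 and Dmc1 to clone 18. The contrast between the parts therefore follows partly from the cut. From Mroh4 to Ddx17, 58 of 95 genes (61.1%) were higher with no overlap and 0 lower. The medians, against the 7 clones other than clone 18, were 0.54 in clone 16, 0.62 in clone 17 and 0.63 in clone 19, or 1.51-fold for the 3 together, while clone 18 stood at 0.02. From Dmc1 to Ppp1r1a, 249 genes to the end of the chromosome, the medians were 0.49, 0.49 and 0.54 in clones 16, 17 and 19, and clone 18 stood at 0.54 as well. Because clone 18 is one of the 8, 32 of the 249 genes were higher with no overlap against all 8, and 127 against the 7 clones other than 18. The 143 genes before Mroh4 had a median of -0.11. The shift of this part, 1.42-fold to 1.51-fold, was smaller than that at the start of the chromosome 14 stretch.

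**Figure D4:**
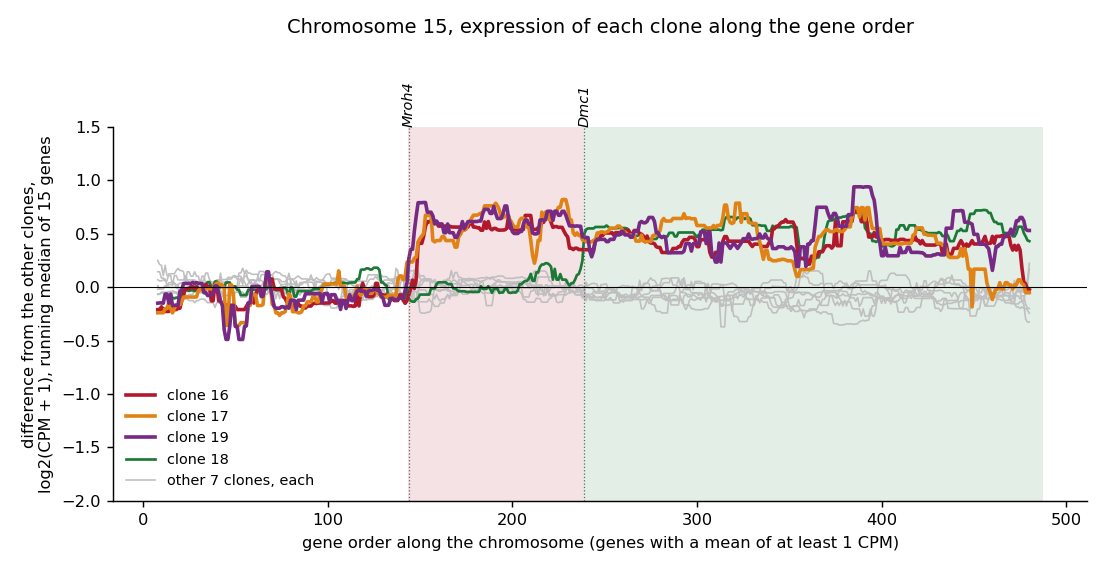
Running median over 15 genes of the difference in log2(CPM + 1) between each clone and the other clones, along the gene order of chromosome 15, for clones 16, 17 and 19, clone 18 and the remaining 7 clones in grey. Clones 16, 17 and 19 lie above 0 from Mroh4 on (red and green shading), and clone 18 joins them from Dmc1 on (green shading). The borders of the shading were fitted to these values.

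Named genes in this part included Pfkm, the muscle-type phosphofructokinase, at 151, 119.7 and 188 CPM in clones 16, 17 and 19, compared with 42.2 to 101 CPM (median 61.8) in the other 8 (1.28 ± 0.23). Rpl8, a ribosomal protein of the large subunit, stood at 3041, 3634 and 3194 CPM in the 3 clones, against 2085 to 2675 CPM (median 2344) in the other 8 (0.50 ± 0.09).

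Other chromosomes shifted in single clones of the 3. Chromosome 3 stood at 0.54 in clone 16 and chromosome 19 at 0.55 in clone 17, each against the other 8, while chromosome 3 stood at -0.02 and 0.000313 in clones 17 and 19 and chromosome 19 at -0.02 and 0.02 in clones 16 and 19. Chromosome 4 stood at -0.16 in clone 19. On the chromosomes other than 3, 4, 14, 15 and 19, 339 of 9760 genes were higher with no overlap (3.47%) and 456 were lower (4.67%). This set still holds chromosome 8, which stood at 0.49 in clone 22, one of the 8. On chromosome 8, 5 of 669 genes were higher with no overlap (0.747%) and 30 were lower (4.48%). The higher part of chromosome 15 held 90 of the 543 higher genes and 4 of the 541 lower genes.

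Among genes without overlap that averaged 5 CPM or more outside the stretches, the 12 higher genes with the largest differences were on chromosomes 2, 3, 4, 6, 7, 11 and 15. Abca1, the cholesterol efflux transporter, stood at 166, 87.4 and 211 CPM in clones 16, 17 and 19, compared with 7.64 to 74.3 CPM (median 18.3) in the other 8 (2.51 ± 0.55). Calcoco2, an autophagy receptor, was at 91.5, 77.1 and 173 CPM in the 3 clones and 16.3 to 51.1 CPM (median 21.5) in the rest (2.09 ± 0.39). Cald1, the actin regulator caldesmon, was at 185, 174 and 284 CPM in clones 16, 17 and 19 and 34.4 to 120.03 CPM (median 55.8) in the others (1.79 ± 0.29). In all 3 genes clone 19 held the highest value of the 11. Tgm2, a transglutaminase, was at 15.3, 34.4 and 53.2 CPM in the 3 clones, against 1.90 to 12.4 CPM (median 8.29) in the other 8 (2.04 ± 0.57), and Frmd4b, a scaffold protein, at 19.1, 30.7 and 34.6 CPM in the 3 clones and 1.83 to 10.1 CPM (median 7.47) in the rest (2.01 ± 0.35). Tmem106a was at 20.4, 21.4 and 19.6 CPM in clones 16, 17 and 19 and 3.86 to 11.7 CPM (median 4.47) in the others (1.79 ± 0.17), with the 3 clones almost equal. Ccn1, a secreted matrix-associated protein, was at 30.96, 18.9 and 21.9 CPM in the 3 clones, against 3.86 to 9.23 CPM (median 6.66) in the other 8 (1.72 ± 0.24). S100a13, Sh3gl3, Serping1 and Hormad2 differed by 1.73 to 2.40 on the log2 scale. Ly6a, the surface antigen Sca-1 on chromosome 15, was at 2.82, 4.60 and 55.7 CPM in clones 16, 17 and 19, compared with 0 to 2.60 CPM (median 1.18) in the other 8, so its difference of 2.38 ± 1.23 rests largely on clone 19.

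Under the same limits, the 12 lower genes with the largest differences were on chromosomes 2, 4, 5, 7, 8, 9, 10, 17 and X. Zfp423, a zinc finger transcription factor, stood at 3.01, 0.873 and 1.79 CPM in clones 16, 17 and 19, compared with 4.85 to 26.1 CPM (median 13.3) in the other 8 (-2.30 ± 0.41). Gli1, the transcription factor and target of Hedgehog signalling, was at 1.41, 2.62 and 2.49 CPM in the 3 clones and 4.05 to 27.9 CPM (median 12.6) in the rest (-2.09 ± 0.36). Esrp1, a splicing regulator of epithelial cells, was at 2.16, 1.19 and 0.289 CPM in clones 16, 17 and 19 and 3.43 to 17.4 CPM (median 6.60) in the others (-2.02 ± 0.45). These genes were at a few CPM in the 3 clones and varied several-fold among the 8. Bnc2, a zinc finger protein, was at 17.2, 17.3 and 5.79 CPM in the 3 clones, against 28.7 to 61.7 CPM (median 48.9) in the other 8 (-1.83 ± 0.49), and Pcolce2, an enhancer of procollagen processing, at 5.65, 4.92 and 9.38 CPM in the 3 clones and 11.7 to 62.9 CPM (median 23.4) in the rest (-1.74 ± 0.35). Zmat4 was at 19.01, 7.38 and 1.22 CPM in clones 16, 17 and 19 and 20.5 to 41.2 CPM (median 25.3) in the others (-1.95 ± 0.93), with clone 16 just below the 8 and clone 19 far below. Phlda2, an imprinted growth regulator, was at 2.92, 1.59 and 1.79 CPM in the 3 clones, against 3.08 to 19.9 CPM (median 11.7) in the other 8 (-1.84 ± 0.32). Crmp1, Tmem28, Slc27a2, Crb3 and Smarca1 differed by -1.99 to -1.76.

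**Figure D5:**
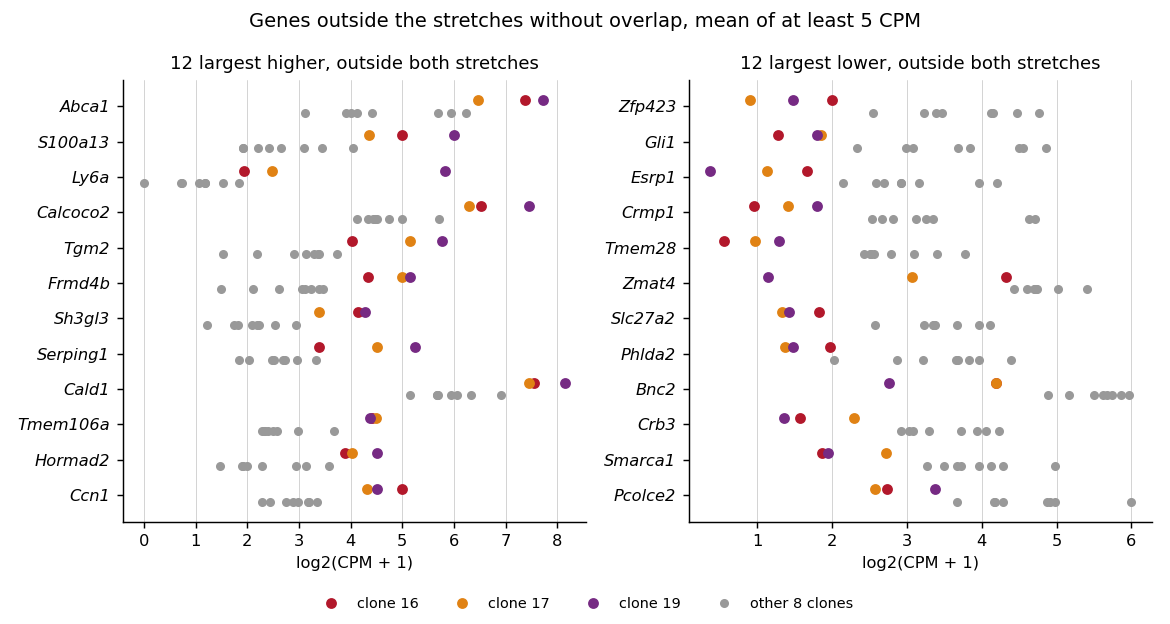
Levels as log2(CPM + 1) of the 12 genes with the largest higher and the 12 with the largest lower differences outside both stretches among genes averaging 5 CPM or more without overlap, 1 point per clone, with clones 16, 17 and 19 in colour above the other 8 clones in grey for each gene. The coloured points of each gene lie to 1 side of all grey points, and the gap is narrow for Ly6a, Phlda2 and Zmat4.

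Among the other lists, glycolysis and hypoxia genes had 4 of 21 higher with no overlap and 0 lower, where 4.71% of all genes were higher and 4.47% lower. The list had a median of 0.24, and 18 of 21 members were above 0. Its members summed to 13056, 13950 and 11735.5 CPM in clones 16, 17 and 19, against 9725 to 12431 CPM in the other 8. By this sum clone 19 lay within the range of the 8. Tpi1, triosephosphate isomerase, stood at 345, 385 and 362 CPM in clones 16, 17 and 19, compared with 166 to 342 CPM (median 242) in the other 8 (0.60 ± 0.13); it overlapped when library totals were used without a scaling factor. Gpi1, glucose-6-phosphate isomerase, stood at 487, 606 and 537 CPM in the 3 clones and 348 to 479.5 CPM (median 395) in the rest (0.43 ± 0.11). The other 2 were Pfkm, in the higher part of chromosome 15, and Gapdh (0.23 ± 0.06), which has many processed copies in the mouse genome. Ldha, lactate dehydrogenase, overlapped at 474, 685 and 501 CPM in clones 16, 17 and 19, compared with 233 to 477 CPM (median 347) in the other 8, and the mitophagy receptor Bnip3 at 110.4, 95.9 and 63.2 CPM in the 3 clones, against 25.99 to 63.4 CPM (median 54.4) in the other 8.

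For lists of other cell types and states, genes without overlap were counted, where 4.71% of all genes were higher and 4.47% lower. Counts in lists this short do not set them apart from those shares. Primitive endoderm had 0 of 11 and a median of 0.10, although its members summed to 667 to 770 CPM in clones 16, 17 and 19 against 436 to 582 CPM in the other 8. Most of that sum came from the matrix genes Sparc at 272, 344 and 473 CPM in the 3 clones and 157 to 299 CPM (median 259) in the rest and Lama1 at 229, 323 and 234 CPM in the 3 clones, against 127 to 271 CPM (median 160.1) in the other 8. Of the 5 markers in the short list, 2 averaged 1 CPM or more, Gata4 and Pdgfra, and Gata6, Sox17 and Sox7 did not. Gata4 averaged 3.11 CPM and overlapped between the sets (difference -0.42). The part of other cell types in these results was not tested. Trophoblast had 0 of 8 (median 0.46), mesoderm 0 of 3 (-0.17), 2-cell-like 0 of 5 (-0.03), WNT targets 0 of 7 (0.16) and p53 targets 0 of 17 (-0.01). Neural genes had 1 of 8 lower, Tubb3, with a median of -0.54, and fibroblast genes 2 of 7 lower, Fbn1 and Thy1, with a median of 0.14. Of 22 imprinted genes, Phlda2 and Mest were lower (median -0.26). Of 20 cytosolic ribosomal protein genes, Rpl3 and Rpl8, both in the higher part of chromosome 15, were higher and Rpl23 lower (median -0.06), and Rpl23 overlapped with the size factors of DESeq2.

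The 3 clones were not copies of one another outside the stretches. The highest and the lowest of the 3 differed by more than 1 on the log2 scale in 1824 of 12389 genes (14.7%), and the median of that difference over genes was 0.44. Clones 17 and 19 alone had 1440 genes above and 1355 below all of the other 8, clones 16 and 19 had 1017 and 1073, and clones 16 and 17 had 758 and 852. A pair of clones leaves more genes without overlap than 3 clones do, whichever pair is taken.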

How the data were processed

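The deposited table holds raw read counts per gene, whole numbers, for 22369 mouse Ensembl genes in 11 libraries of total RNA, 1 per clone. Per the submitters' processing notes, the tools were Bowtie 0.12.7 and TopHat 1.4.0 and mm9 and hg19 are the builds listed. The file name gives the genes as protein-coding genes of Ensembl release 66. How reads were counted, whether by strand and what became of reads matching several places were steps not given in the sources used here, and genes with near-identical copies (Rps3a2, Gapdh, Rpl3) are uncertain. Per the labels' protocols, RNA was isolated with RNeasy and sequencing libraries were prepared by TruSeq RNA chemistry.

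CPM were computed on TMM library sizes (edgeR 4.0.16 in R 4.3.3, factors 0.968 to 1.03), and 12481 genes averaging 1 CPM or more were described. Differences are means of log2(CPM + 1) in clones 16, 17 and 19 minus those in the other 8, with a pseudocount of 1 CPM, which understates the differences of low genes. Their standard error (SE) is the root of the summed variances over n (3 and 8). A gene is without overlap where all 3 clones lie above, or all below, all of the other 8. No p-value was computed, since the clones were chosen on this contrast. A count of 3 equals 0.174 to 0.282 CPM, and depth covers counting error only. Symbols were found for 20777 genes. The order of genes was read from GENCODE vM21 (GRCm38). As this build is newer than mm9, it served for chromosome names and neighbours alone, and 133 described genes had no position. The switch between the stretches is the least-squares change point of the mean difference from Polr3d to Tmtc4. The clones, members and 19 gene lists (248 of 312 members described) were chosen with earlier results of these data known. Named genes are those of the rule, the ends, the most abundant members and the largest differences of each stretch, the 12 largest differences per direction outside averaging 5 CPM or more, and up to 4 genes without overlap per list. Further members, list genes and the groups by function were named after their values were seen. DESeq2 1.42.0 size factors served as an alternative. Results on a few genes are not reported here. Procedures were tested on simulated data.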

Additional observations from a re-analysis of the deposited data

Results flagged for a closer look

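Among 124 sets of 8 values of the other clones, 21 had a highest or lowest clone whose gap to its nearest neighbour was a large share of the range of the 8, and in 12 of these it was clone 21. These sets are not independent, since many are genes of the same part of chromosome 14, and most genes were named from this contrast. No number expected by chance is therefore given. Clone 21 was lowest in the median of the higher stretch, with a gap of 0.943 of the range, and in the median of the rest of chromosome 14, with 0.884. It was also lowest in Polr3d (0.605), Phyhip (0.549), Tpt1 (0.748), Tsc22d1 (0.621), Xpo7 (0.585), Itm2b (0.65), Med4 (0.656) and Nufip1 (0.697) of the higher stretch, in Ccar2 (0.825) just before it and in Dzip1 (0.56) of the lower stretch, each number being the gap as a share of the range.

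Clone 18 was highest in the median of chromosome 15, with a gap of 0.851 of the range, and in Tmem106a (0.621). Clone 24 was highest in Dis3 (0.669) and Smarca1 (0.548) and lowest in Lmo7 (0.543) and Clybl (0.541). Clone 26 was highest in Calcoco2 (0.586), Pcolce2 (0.635) and Dppa3 (0.94).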

How the results depend on the processing

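No result that was called changed direction under any setting run, which were DESeq2 size factors, library totals without a factor, TMM without chromosome 14, a mean of at least 5 CPM, no filter, a pseudocount of 0.25 CPM, other switch points and each clone left out. With no filter on low values the median difference was 0.67 in the higher stretch, -0.43 in the lower stretch and 0.11 on chromosome 15. With each clone left out in turn, genes without overlap outside the stretches numbered 569 to 1440 higher and 564 to 1355 lower. The counts were 1440 and 1355 without clone 16, 1017 and 1073 without clone 17, 758 and 852 without clone 19 and 774 and 681 without clone 18. In the higher stretch 43 to 48 genes and in the lower 17 to 19 had no overlap, with medians of 0.80 to 0.95 and -0.92 to -0.60. The switch between the stretches was fitted again each time. The 0.80 was without clone 21, where the higher stretch then ran from Polr3d to Spry2 (66 genes). Over the 58 genes of the main setting the median without clone 21 was 0.84. Chromosome 15 stood at 0.30 to 0.36, the highest without clone 18. Leaving out a clone cannot end a lack of overlap, so over the same genes these counts can only grow, and they are no sign of stability. Without chromosomes 3, 4, 14, 15 and 19, a choice made after seeing the data, 339 genes were higher and 456 lower. Of 84 named genes without overlap, Rpl23 overlapped with DESeq2 size factors and Tpi1 with library totals. No paired analysis was possible because the clone numbers do not pair samples. With 1 library per clone, clone and library differences cannot be told apart, and genes of a few CPM rest on few counts.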
